A study of Mus musculus with 14 samples.

Results

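Platelets stop bleeding by sticking to exposed collagen and von Willebrand factor, releasing granules, and clumping through an activated integrin, and megakaryocytes of the bone marrow make them and stock their granules. The genes described here are 38 named genes of that machinery. They encode granule proteins, adhesion receptors, receptors of thrombin, ADP, ATP and thromboxane, the enzymes that make thromboxane, and the signalling and cytoskeletal proteins that carry the response. Many of them act elsewhere too: endothelial cells make Vwf, Selp and Mmrn1, monocytes make F13a1 and Plek, and Tln1, Myh9, Vcl, Zyx and Actn1 are used in most tissues. In mouse and human megakaryocytes, GATA1 and Ets factors such as FLI1 are known regulators of many of these genes.

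The members were chosen by name, as the rows of the peak list whose nearest gene is 1 of the 38. They took 262 of the 92842 peaks. The list names 19105 genes, among them 37 of the 38 members; Thbs1 is the one it does not name. Open chromatin was measured by ATAC-seq, in which a transposase cuts accessible DNA, in wild-type adult C57BL/6 mice of 8 to 12 weeks. The 7 sorted populations were MPP, CLP, CMP, MEP, GMP and ProB cells of the bone marrow and ProT cells of the thymus, with 2 libraries each and 14 in all. Per the labels, CMP are common myeloid, CLP common lymphoid, GMP granulocyte and macrophage, and MEP megakaryocyte and erythroid progenitors, MPP are multipotent progenitors, and ProB and ProT are B and T cell progenitors. No mature megakaryocytes or platelets are among these labels.

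The file analysed is 1 merged list with no value per library, so no cell type can be attached to a peak and nothing below compares cell types. Depth is unknown, and no value has a replicate, so the label of the set could not be checked against any cell type. A peak open in few cells of every population and a peak open in all cells of 1 population look alike in it. Each peak is 499 bp wide and belongs, in the list, to the gene with the nearest transcription start site (TSS). Because the members were picked with earlier results of these data known, their values stand beside those of all genes as a description, with no test.

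Of the 38 members, 37 had at least 1 peak (97.4%, exact 95% interval 86.2 to 99.9), beside 75.2% of the 21887 protein-coding genes of the RefSeq table. A peak given to the gene and centred within 1 kb of its TSS, called a promoter peak here, was found at 34 members (89.5%, exact 95% interval 75.2 to 97.1), beside 55.5% of protein-coding genes. The 4 without one were Ppbp, Thbs1, Selp and Gp1bb, although a peak that the list gives to Gm13986 was centred 353 bp from the start of Thbs1. The intervals cover counting error only.

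The number of peaks per member ran from 0 to 25, with a median of 5 and a mean of 6.89 ± 5.67 (SD over genes, n = 38). The median over all 19105 genes in the list was 3. Above 3 peaks were 26 members, 3 had exactly 3, and 9 had fewer. Of the 21887 protein-coding genes, 66.5% had fewer than 4 peaks and 90.5% had fewer than 10. The 10 members with at least 10 peaks were Angpt1, Myh9, P2ry1, F13a1, F2rl2, Tbxas1, Vwf, Actn1, Rab27b and Plek, and they held 148 of the 262 peaks (56.5%). At the other end, Ppbp, Gp1bb, Gp6 and Treml1 had 1 peak each. Fewer than 2 peaks were given to 42.2% of protein-coding genes. The lone peak lay at the promoter at Gp6 and Treml1 and away from it at Ppbp and Gp1bb.

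**Figure D1:**
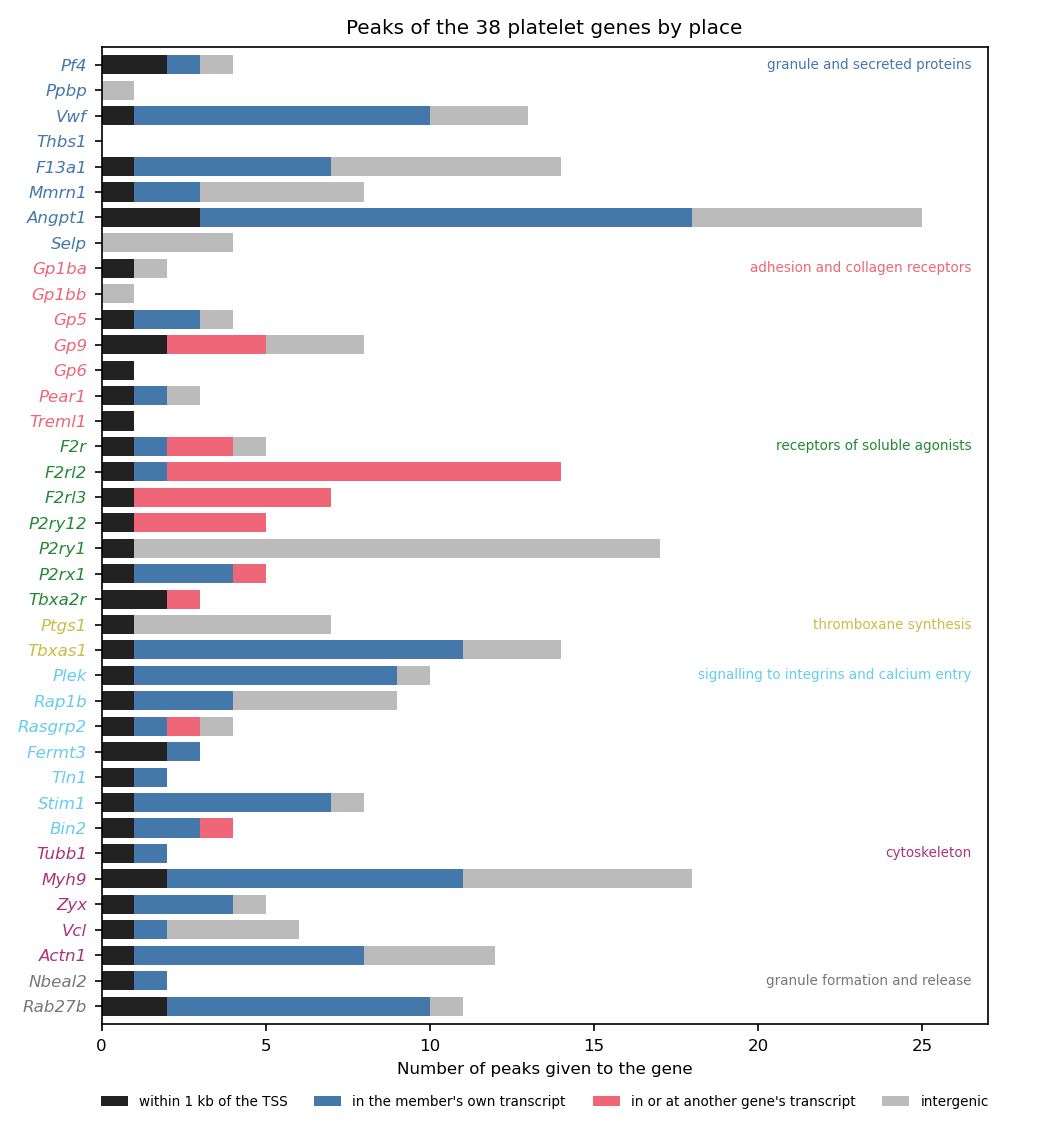
Number of peaks given to each of the 38 genes (x axis), split by where the peak lies, with genes in the order of their roles and gene names coloured by role. Angpt1 has the longest bar at 25 peaks, Thbs1 has none, and the bars of F2rl2 and P2ry12 consist mostly of peaks in the transcripts of other genes.

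By place, 42 of the peaks given to members were promoter peaks, or 16.0% (11.8 to 21.0, exact 95% interval), beside 16.2% of all other peaks. Peaks further away but inside a transcript of the member itself numbered 103 (39.3%, 33.4 to 45.5), beside 31.1% of other peaks. Another 31 (11.8%, 8.18 to 16.4) lay in or at the end of a transcript of another gene, beside 13.3%, and 86 (32.8%, 27.2 to 38.9) were intergenic, beside 39.3%. Of the 103 peaks within the member's own transcript, 47 were in its first intron. The median distance to the TSS was 15.7 kb for member peaks and 18.2 kb for the others. Peaks of 1 gene are not independent, so these intervals are too narrow as statements about genes.

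The nearest peak was centred within 200 bp of the TSS at 27 of the 38 members, beside 44.0% of protein-coding genes. Among genes with a promoter peak the share was 79.4% for the members (27 of 34) and 79.4% for all protein-coding genes (9633 of 12139). The centre lay 5 bp downstream at Rap1b, a small GTPase that switches on platelet integrins, 5 bp upstream at Tubb1, the beta-tubulin of the platelet marginal band, and 11 bp upstream at Vwf. The loosest cases were P2ry12 at 522 bp and Mmrn1 at 523 bp downstream. At Rasgrp2, which activates Rap1 proteins, peaks 1013 bp upstream and 1002 bp downstream fell just outside the window and a peak 56 bp upstream fell inside it. Those outer peaks overlap the RefSeq promoters of Rasgrp2 with starts at 6399875 and 6401705 on chromosome 19. The peak inside the window overlaps neither of them. At Fermt3, which encodes kindlin-3, a partner of integrin tails, a second promoter peak 946 bp upstream fell just inside.

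**Figure D2:**
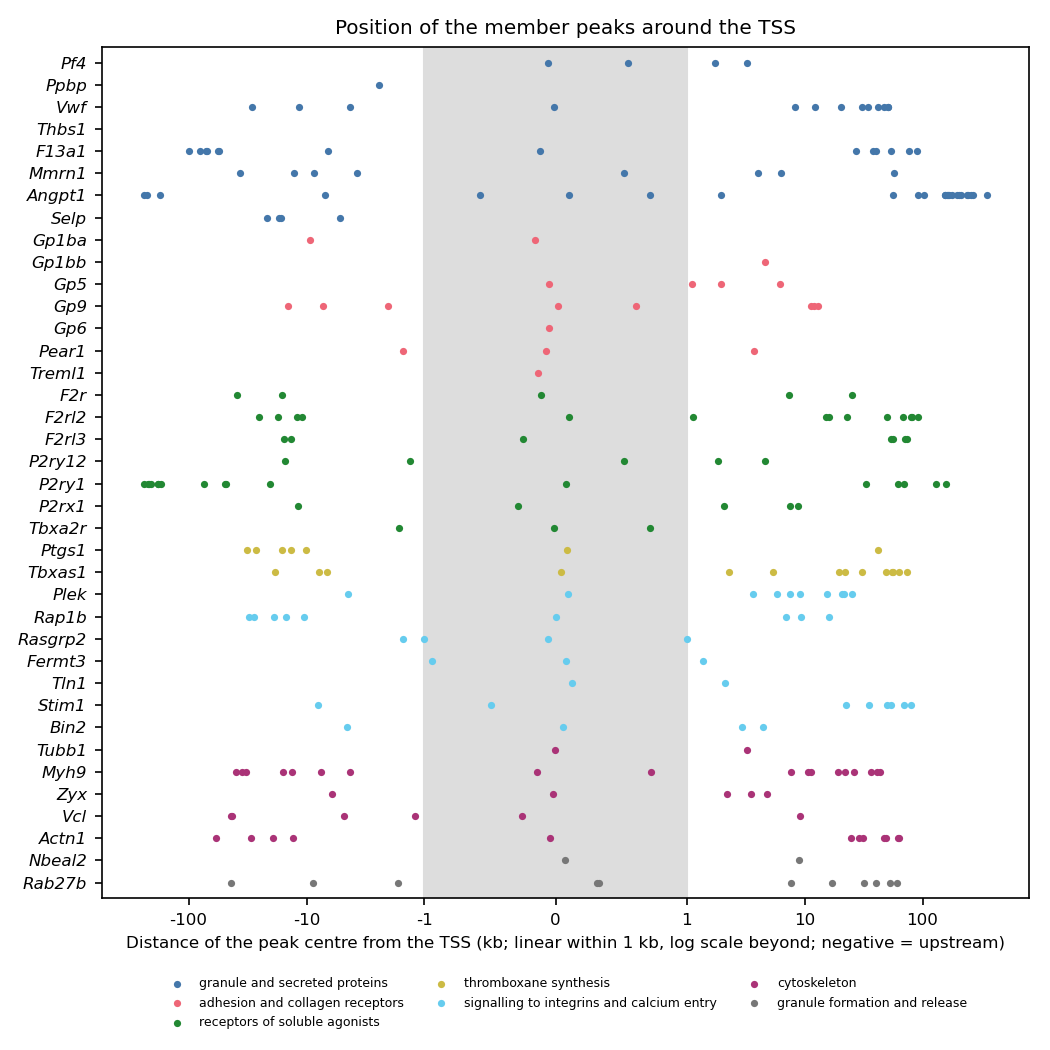
Each point is 1 member peak at its signed distance in kb from the TSS (x axis, linear within 1 kb and logarithmic beyond, upstream to the left), in 1 line per gene, coloured by role, with the window of 1 kb shaded. A column of points near 0 marks the promoter peaks of 34 members, and the rows of Ppbp, Selp and Gp1bb hold points only outside the window.

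Promoter sequence, taken from RefSeq (GRCm38.p6, the assembly of mm10, with 250 bases before and 50 after the start), was at hand for 33 of the 38 members, and Vwf, Thbs1, Angpt1, Bin2 and Rab27b had no entry. A peak overlapped this window at 28 of the 33. Any overlap was counted, and at Stim1 it was only 9 bases. The matching share over all genes with a promoter was not counted, so the 28 cannot be called high or low. Both strands were searched for 6 motifs. Factors of the GATA family bind the motif AGATAA, Ets factors bind the core written here as GGAAGT, and Runx factors bind the core TGTGGT. The motif of NF-E2, which AP-1 shares, was written as TGAGTCA. The GC box of Sp and Klf factors was written as GGGCGG, and the CArG box is that of serum response factor. A match is only a match of letters, and no match says nothing about a factor. The following 8 promoters, each printed over the 250 bases before the start, were chosen to show different kinds of promoter in the set: GATA and Ets matches together (Gp5, Gp6, F2rl3, Pf4), no peak over the promoter (Ppbp), and other motifs (Fermt3, Vcl, Stim1). The Ets match of Gp6 and the GATA match of Pf4 lie after the start, outside the printed bases. Capitals mark the matches, which appear as the reverse complement where the motif is on the other strand.
Gp5 chr16:30310782-30311031 on the reverse strand: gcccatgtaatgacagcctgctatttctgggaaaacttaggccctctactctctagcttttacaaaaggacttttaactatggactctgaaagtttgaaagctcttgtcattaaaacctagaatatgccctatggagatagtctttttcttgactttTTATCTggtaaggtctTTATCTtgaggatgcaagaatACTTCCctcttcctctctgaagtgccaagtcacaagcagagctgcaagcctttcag
Gp6 chr7:4397745-4397994 on the reverse strand: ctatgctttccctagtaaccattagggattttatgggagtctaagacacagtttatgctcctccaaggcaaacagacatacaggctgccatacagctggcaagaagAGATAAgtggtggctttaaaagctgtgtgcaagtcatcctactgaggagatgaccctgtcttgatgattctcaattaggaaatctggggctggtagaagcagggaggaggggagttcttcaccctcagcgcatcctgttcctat
F2rl3 chr8:72761409-72761658 on the forward strand: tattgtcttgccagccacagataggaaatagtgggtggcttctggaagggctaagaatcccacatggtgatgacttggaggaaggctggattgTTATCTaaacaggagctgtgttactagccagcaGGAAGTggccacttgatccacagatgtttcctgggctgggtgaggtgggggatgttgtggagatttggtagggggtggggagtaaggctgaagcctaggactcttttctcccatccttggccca
Pf4 chr5:90772185-90772434 on the forward strand: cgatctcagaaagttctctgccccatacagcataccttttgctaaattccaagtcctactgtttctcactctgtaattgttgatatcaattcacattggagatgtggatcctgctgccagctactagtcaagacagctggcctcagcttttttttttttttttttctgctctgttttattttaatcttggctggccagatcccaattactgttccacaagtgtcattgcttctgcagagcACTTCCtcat
Ppbp chr5:90768268-90768517 on the forward strand: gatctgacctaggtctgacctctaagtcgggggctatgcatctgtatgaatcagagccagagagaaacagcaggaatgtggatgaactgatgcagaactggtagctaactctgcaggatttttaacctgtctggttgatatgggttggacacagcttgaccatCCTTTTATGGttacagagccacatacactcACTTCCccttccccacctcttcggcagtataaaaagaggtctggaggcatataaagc
Fermt3 chr19:7019470-7019719 on the reverse strand: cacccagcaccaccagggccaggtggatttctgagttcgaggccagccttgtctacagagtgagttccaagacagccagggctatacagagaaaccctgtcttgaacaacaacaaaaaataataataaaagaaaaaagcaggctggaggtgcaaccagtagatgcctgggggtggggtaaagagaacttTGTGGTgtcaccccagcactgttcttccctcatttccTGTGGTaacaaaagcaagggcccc
Vcl chr14:20929148-20929397 on the forward strand: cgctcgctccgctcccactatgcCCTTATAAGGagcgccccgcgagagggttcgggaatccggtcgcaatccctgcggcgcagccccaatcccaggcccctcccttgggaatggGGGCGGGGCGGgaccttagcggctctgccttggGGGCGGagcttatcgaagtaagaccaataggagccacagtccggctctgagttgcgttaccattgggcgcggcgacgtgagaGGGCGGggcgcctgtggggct
Stim1 chr7:102267569-102267818 on the forward strand: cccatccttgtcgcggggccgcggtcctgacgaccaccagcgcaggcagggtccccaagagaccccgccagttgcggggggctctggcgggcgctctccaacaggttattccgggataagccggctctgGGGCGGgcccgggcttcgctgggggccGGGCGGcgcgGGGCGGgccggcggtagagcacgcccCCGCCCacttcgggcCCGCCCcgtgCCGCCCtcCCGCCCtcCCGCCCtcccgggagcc

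The Ets motif was found in the promoter window of 15 of the 33 members (45.5%), beside 26.5% of the 27025 genes of the promoter table. That table holds more genes than the 21887 protein-coding ones used above, so not all are coding, while all 33 members are. Every motif share and the G and C content below are set beside this wider set, and values over coding genes alone are not given. At Ppbp, Mmrn1, Selp, P2ry12 and F13a1 no peak overlapped the window that holds the Ets match. For F13a1 that window is not the one under its promoter peak. At Gp9 a peak covered 213 bases of the window, and the Ets match, 240 bases before the start, lies outside them. AGATAA was found in 6 (18.2%), beside 12.7%, namely in Pf4, Gp5, Gp6, F2rl2, F2rl3 and P2rx1. All 6 are granule or receptor genes, and most of the 33 members are too. Granule proteins account for 5 of them, adhesion and collagen receptors for 7 and receptors of soluble agonists for 7. Both motifs together occurred in 4 members (12.1%), beside 3.41% of all genes. In Gp5, the promoter shown above holds AGATAA 93 and 77 bases before the start and the Ets motif 56 bases before it, each counted to the first base of the match. In F2rl3 the pair begins 157 and 124 bases before the start. In Gp6 AGATAA begins 144 bases before the start and the Ets motif lies beyond it, from base 17 of the transcript. In Pf4 the Ets motif begins 10 bases before the start and AGATAA begins at base 37 of the transcript. Peaks covered the whole 300-base window of all 4. A search chosen after the data were seen took 4 forms of the GATA factor motif, with the form AGATAG added, then also the form TGATAA and last the form TGATAG. With it, 9 members (27.3%) held a match beside 33.0% of all genes, so the members' share was above that of all genes with the strict form and below it with the wider one. The members gained were Gp1ba, Gp1bb and Mmrn1.

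GC boxes were found in 13 members (39.4%), beside 38.2% of all genes. By role, they were found in 4 of the 5 cytoskeletal genes with a promoter in the table, 3 of the 6 signalling genes, 3 of the 7 receptors of soluble agonists, 2 of the 7 adhesion and collagen receptors and Nbeal2, but in neither thromboxane enzyme and none of the 5 granule protein genes. Stim1, the calcium sensor of the endoplasmic reticulum, had 8 in its window, and Rasgrp2 and Myh9, the heavy chain of non-muscle myosin IIA, had 6 each. All 8 of Stim1 lie outside the 9 bases of its window that a peak covers. Of the 4 GC boxes at Vcl, those beginning 136 and 131 bases before the start overlap. The G and C content, taken from the first promoter listed for a gene, also varied between roles. Its median was 67.5% over signalling genes (39.0% to 80.0%), 66.7% over cytoskeletal genes (56.0% to 68.3%), 60.7% over receptors of soluble agonists (42.3% to 70.7%) and 57.0% over adhesion and collagen receptors (41.0% to 75.0%). It was 47.5% over the thromboxane enzymes and 44.3% over granule protein genes (42.7% to 51.7%), and Nbeal2 had 64.0%. The median was 57.0% over all 33 members, beside 52.7% over all genes of the table. No role has more than 7 genes with a promoter in the table, and within signalling Plek had the lowest content of all members, 39.0%.

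The Runx motif was found in 3 members (9.09%), beside 18.9% of all genes, and Fermt3 held it in duplicate, 61 and 24 bases before the start. TGAGTCA occurred in F2r, F2rl2 and Zyx (9.09%, beside 5.95%). The CArG box occurred in Vcl and Ppbp (6.06%, beside 1.81%). At Vcl, which encodes vinculin and is a textbook target of serum response factor, it begins 227 bases before the start. These counts are small, and the motifs were not weighed against base content.

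**Figure D3:**
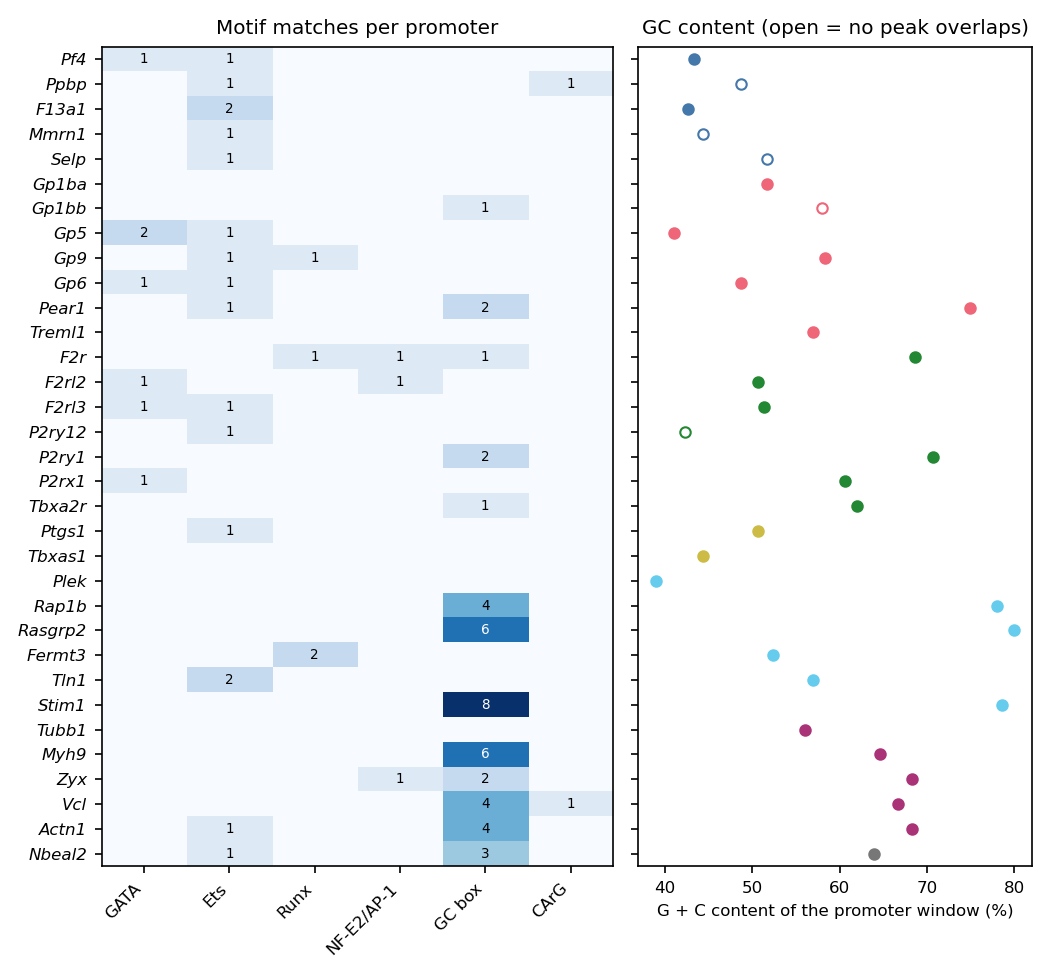
Left, number of matches of each of 6 motifs (columns) in the promoter window of each of 33 members (rows), with the higher count where a gene has several promoters; right, G and C content of that window in percent, coloured by role, with open circles where no peak overlaps it. GATA matches sit only in the upper rows, the granule and receptor genes, which make up most of the rows. The highest GC box counts sit at Stim1 (8), Rasgrp2 (6) and Myh9 (6).

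Among the granule and secreted proteins, 7 of 8 members had a peak and 5 had a promoter peak, with 69 peaks in all and a median of 6. Angpt1 encodes angiopoietin-1, a ligand of the Tie2 receptor that blood progenitors and megakaryocytes also make. Its 25 peaks (chromosome 15) spanned 591 kb, and 99.0% of protein-coding genes had fewer. Promoter peaks of Angpt1 lay 573 bp upstream and 104 and 718 bp downstream of the TSS, 15 more lay deeper in the gene, and 18 of the 25 lay over 100 kb from the TSS. F13a1, the catalytic chain of clotting factor XIII, had 14 peaks. The F13a1 promoter peak (chromosome 13, 37050114 to 37050612) was centred 119 bp upstream, 6 peaks followed in the gene between 27.4 and 90.3 kb downstream, and 6 of the 7 intergenic peaks lay 54.8 to 98.6 kb upstream. One further peak inside F13a1, 164 kb from its start, was given to Nrn1.

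Vwf, the adhesive ligand of platelet glycoprotein Ib, had 13 peaks. The promoter peak (chromosome 6, 125552688 to 125553186) had 3 peaks upstream of it, at 28.8, 11.7 and 4.30 kb, and 9 downstream, from 8.27 to 51.1 kb. All 9 lay between intron 3 and intron 14 of the 51 introns. The rest of the gene held 3 peaks, at 69.7, 109 and 126 kb from the start, and the list gave these to Ano2, the next gene. Mmrn1, which encodes the factor V carrier multimerin-1, had 8 peaks, 4 of them upstream at 3.70 to 36.8 kb.

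The chemokine genes Pf4 and Ppbp, whose products fill the alpha granule, start 3.92 kb apart on chromosome 5 and differed in the list. Pf4 had 4 peaks within a span of 3.32 kb: 55 bp upstream of the TSS (90772131 to 90772629), 554 bp downstream in exon 2 of 3, 1.75 kb downstream at the end of the gene and 3.26 kb downstream. Ppbp had a single peak 2.44 kb upstream (90765824 to 90766322) and none over its promoter. Of the 1837 genes with exactly 4 peaks, the median span was 27.3 kb, and 0.327% were as tight as Pf4. Rasgrp2 was tighter still, with 4 peaks in 2.52 kb (0.163%). These spans count only peaks given to the gene, so a near neighbour can shorten them. A further peak inside Rasgrp2, 11.1 kb from its start, was given to Nrxn2. Peaks given to any gene within 50 kb of the start numbered 17 at Rasgrp2 and 10 at Pf4.

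Selp encodes P-selectin, which platelets carry to the surface to bind leukocytes. Its 4 peaks were all intergenic, 5.22, 16.6, 17.2 and 21.8 kb upstream of the TSS on chromosome 1. Inside Selp lay 4 other peaks, 20.3, 23.6, 24.5 and 34.3 kb from its start, which the list gave to F5, the clotting factor V gene that follows it. Within 50 kb of the Selp start there were 19 peaks in all. Thbs1, the gene of thrombospondin-1, an alpha granule adhesive protein, was named at no peak. The closest peak (chromosome 2, 118111274 to 118111772) ended 104 bp outside Thbs1, with its centre 353 bp from the gene's start, and was given to the long non-coding RNA gene Gm13986, whose TSS lies 321 bp from that centre. It was the only 1 of the 12 Gm13986 peaks within 1 kb of Thbs1. The next Gm13986 peak lay 41456 bp from Thbs1. The strand of Thbs1 was taken as forward, since the tables used do not give it.

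**Figure D4:**
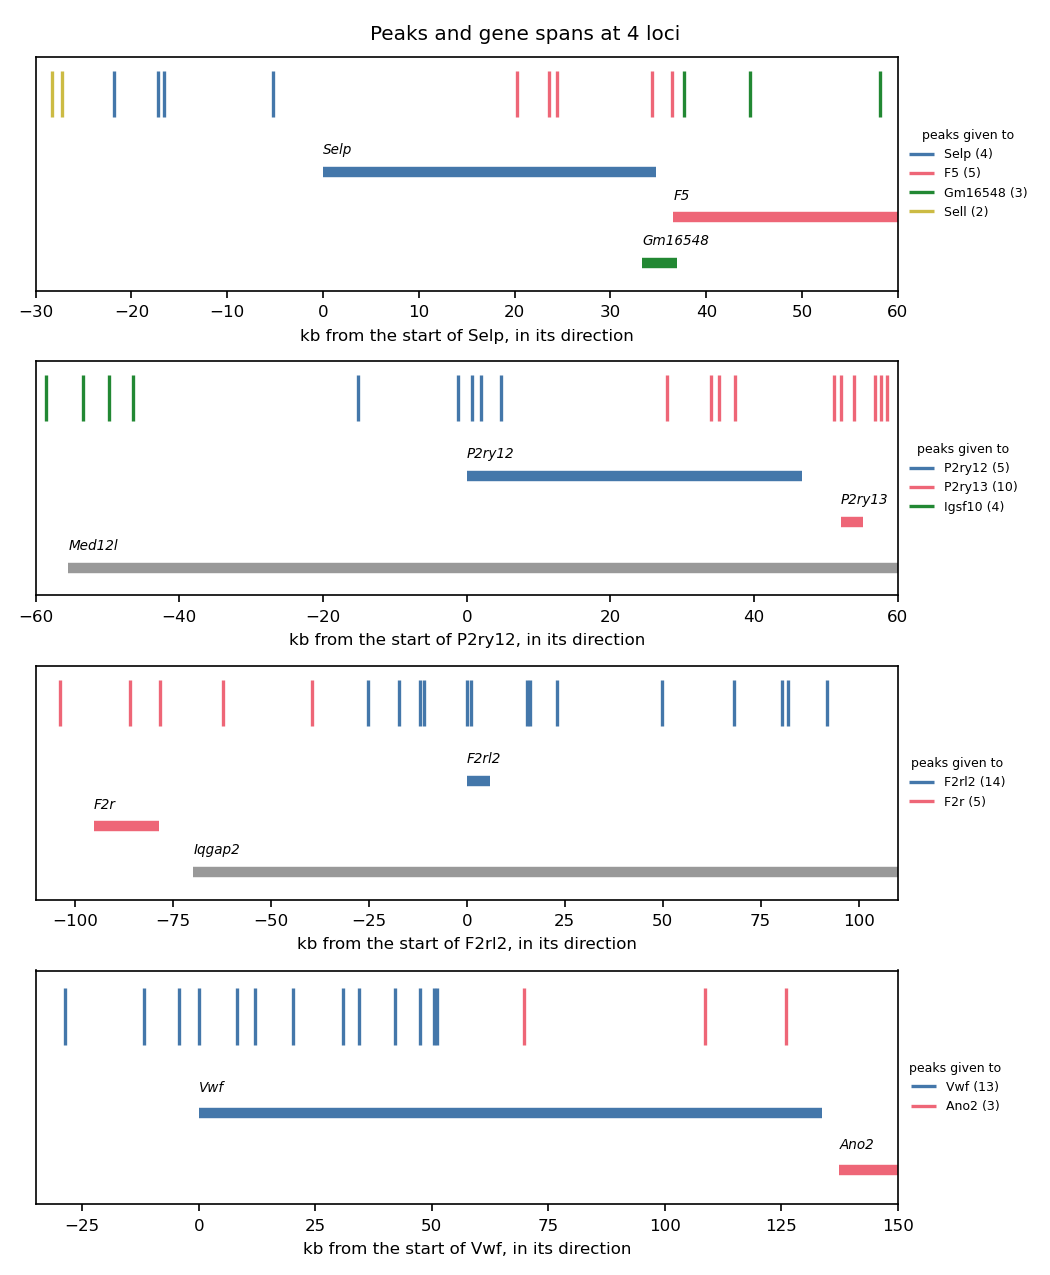
Peaks (vertical lines, coloured by the gene the list gives them to, with their number in the window) and gene spans of the RefSeq table (horizontal bars) at 4 loci, in kb from the start of Selp, P2ry12, F2rl2 and Vwf (x axis). The peaks inside Selp carry the colour of F5, the 4 unlisted peaks within P2ry12 that of P2ry13, the later peaks of Vwf that of Ano2, and most peaks of F2rl2 lie along the bar of Iqgap2.

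The adhesion and collagen receptors had 20 peaks over 7 members and the lowest median of the 7 roles, 2, and 6 of the 7 had a promoter peak. Gp1ba, Gp1bb, Gp9 and Gp5 form the glycoprotein Ib-IX-V complex, which binds von Willebrand factor. Gp9 had 8 peaks: a promoter peak centred 20 bp downstream (chromosome 6, 87777907 to 87778405), another 615 bp downstream, 3 upstream at 2.06, 7.29 and 14.4 kb, and 3 at 11.2 to 12.9 kb downstream within Rab43. The list calls the peak 2.06 kb upstream (87775832 to 87776330) intergenic, but it covers the first base of the RefSeq Gp9 span, 87776131. Gp5 had 4, with its promoter peak 51 bp upstream (chromosome 16, 30310583 to 30311081), peaks 1.10 and 1.97 kb downstream in exon 2 of 2 and 1 beyond the gene. Gp1ba had a promoter peak 154 bp upstream (chromosome 11, 70638719 to 70639217) and a peak 9.30 kb upstream. Gp1bb had only a peak 4.62 kb downstream (chromosome 16, 18617535 to 18618033) and none at its promoter.

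Gp6, the collagen receptor, spans 35.0 kb and had a single peak, 47 bp upstream of the TSS (chromosome 7, 4397542 to 4398040). Treml1, an alpha granule receptor that platelets expose on activation, also had 1, at 131 bp upstream (chromosome 17, 48359536 to 48360034). Pear1, a platelet contact receptor that endothelium shares, had 3, at 74 bp and 1.51 kb upstream and 3.76 kb downstream. Another 2 peaks in the span of Pear1 were given to Lrrc71, 1 of them at the Lrrc71 promoter, 19.9 kb from the start of Pear1.

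All 7 receptors of soluble agonists had a promoter peak. They held 56 peaks with a median of 5, and 26 of these (46.4%) lay in transcripts of other genes, the largest share of the 7 roles. The thrombin receptor genes F2r and F2rl2 start 78.5 kb apart on chromosome 13. F2rl2, which encodes PAR3, a cofactor of thrombin signalling on mouse platelets, had 14 peaks, of which 12 lay in Iqgap2, a gene in whose span F2rl2 lies. The other 2 were centred 103 bp (95696774 to 95697272, in the 5-prime UTR) and 1.13 kb downstream of the TSS. F2r, the PAR1 gene, had 5: 1 at 109 bp upstream (95618293 to 95618791), 2 downstream at 7.45 and 25.3 kb, and 2 upstream inside Iqgap2. Iqgap2 itself was given 21 further peaks.

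F2rl3 encodes PAR4, the main thrombin receptor of mouse platelets. It had 7 peaks, 1 of them 251 bp upstream (chromosome 8, 72761380 to 72761878) and 2 further upstream within Sin3b. P2ry12, the ADP receptor that clopidogrel blocks, lies inside Med12l on chromosome 3. Its 5 peaks were centred from 15.3 kb upstream to 4.57 kb downstream, the nearest 522 bp downstream (59262060 to 59262558), and all 5 are annotated to exons or introns of Med12l, 4 of them beyond 1 kb. A further 4 peaks in the span of P2ry12, 27.9 to 37.4 kb from its start, were given to P2ry13, the neighbouring ADP receptor gene.

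P2ry1, the other ADP receptor of platelets, had 17 peaks, and 16 of them were intergenic. Its promoter peak was centred 82 bp downstream (chromosome 3, 61002618 to 61003116), 9 peaks lay over 100 kb away, and the farthest was 240 kb upstream. P2rx1, an ATP-gated channel, had 5: 1 at 287 bp upstream, 3 in intron 1 at 2.08, 7.45 and 8.74 kb, and 1 upstream in Atp2a3, a calcium pump gene. Tbxa2r, the thromboxane receptor, had peaks 14 bp upstream and 719 bp downstream and 1 at the end of Cactin.

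Of the thromboxane enzymes, Ptgs1 (cyclooxygenase-1, the target of aspirin) had 7 peaks and Tbxas1 (thromboxane synthase) 14. The Ptgs1 promoter peak was centred 85 bp downstream (chromosome 2, 36230262 to 36230760), 5 lay 10.1 to 31.8 kb upstream and 1 lay 42.3 kb downstream. The peak 13.5 kb upstream (36216660 to 36217158), which the list calls intergenic, covers the first base of the longer Ptgs1 span of the RefSeq table, at 36216742. In Tbxas1 the promoter peak was centred 38 bp downstream (chromosome 6, 38918775 to 38919273), with 10 more in the gene from 2.30 to 73.2 kb. Its RefSeq span held 11 peaks given to other genes, to Hipk2 at one end and to 1700025N23Rik at the other.

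The signalling genes had a promoter peak at all 7 members and 40 peaks with a median of 4. Plek, which encodes pleckstrin, the main substrate of protein kinase C in platelets, had 10, of which 1 was at the promoter (chromosome 11, 17008371 to 17008869), 8 in introns 1 to 7 and 1 at 4.41 kb upstream. A cluster of 3 further intronic peaks of Plek, about 31 kb from its start, was given to Fbxo48. Rap1b had 9: 1 at the promoter (chromosome 10, 117845720 to 117846218), 3 in intron 1 and 5 upstream at 10.5 to 30.8 kb. Stim1 had 8, with 6 in intron 1 up to 79.8 kb downstream, and 7 more peaks further along the gene were given to Rrm1. Bin2, which helps calcium entry, and Rasgrp2 had 4 each, Fermt3 had 3, and Tln1, the talin that unlocks integrins, had 2, at 127 bp and 2.10 kb downstream, the nearer of which the list also annotates to the promoter of Creb3.

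Cytoskeletal genes had 43 peaks and a promoter peak at all 5 members. Myh9 had 18 in 83.2 kb, all within 50 kb of the TSS: 2 at the promoter (139 bp upstream, chromosome 15, 77842065 to 77842563, and 725 bp downstream), 9 in introns 1 and 3, and 7 upstream at 4.25 to 39.8 kb. Actn1, an actin cross-linker, had 12, with 5 of its 7 intronic peaks in intron 1 and 4 intergenic peaks up to 58.9 kb upstream. Vcl had 6, Zyx, which encodes the adhesion protein zyxin, had 5, and Tubb1, the most platelet-restricted of these genes, had 2: the promoter peak (chromosome 2, 174450341 to 174450839) and 1 in intron 1. Of the granule formation genes, Rab27b, a GTPase of granule release, had 11 peaks on chromosome 18, among them 1 centred 319 bp and 1 centred 328 bp downstream of different TSSs, and Nbeal2, without which mouse and human platelets lack alpha granules, had 2, at 71 bp and 8.89 kb downstream.

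Since nearest-gene counts depend on how far away the next gene is, all peaks within 50 kb of each gene start were also counted, whatever gene they were given to. The start is that of the RefSeq gene span, which can differ from the TSS that the list uses. Members had a median of 10 such peaks, beside 6 over 20839 protein-coding genes that could be placed. Above 6 were 30 members, 1 was at 6 and 7 were below. The order of the members changed with this count. Tbxa2r, with 3 peaks of its own, had 23 within 50 kb, more than 99.6% of placed coding genes had, and Myh9 had 20, Gp9 and Selp 19 each, and P2rx1, Plek and Rasgrp2 17 each. Angpt1, P2ry1, F13a1, F2r and Gp6 had 5 each, and Rab27b and Thbs1 had 3 each. For Rab27b the span starts at 70141633, while 9 of its own peaks lay within 50 kb of a TSS of the list. Tbxas1 had 11 around a span start of 38864159, while its RefSeq promoter starts at 38918986. The counts and the order thus depend on the start taken as well. In the bodies of the members lay 186 peaks, of which 47, at 14 members, were given to other genes.

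**Figure D5:**
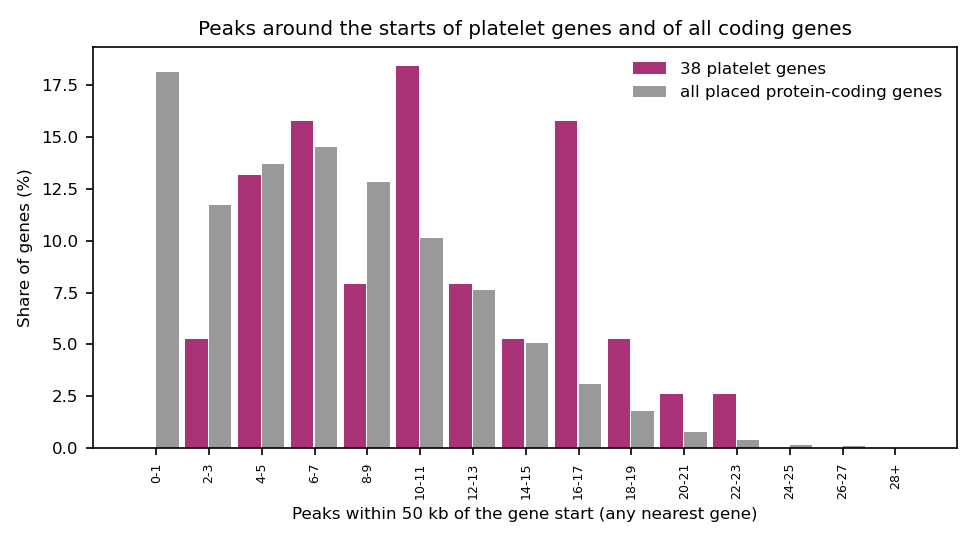
Share of genes in percent (y axis) by the number of peaks within 50 kb of the gene start (x axis, in steps of 2), for the 38 platelet genes and for all 20839 placed protein-coding genes. No platelet gene has fewer than 3 peaks in this window, while the lowest step holds the largest group of all coding genes, and the medians are 10 and 6.

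A list of 53 further genes of platelet function had 399 peaks with a median of 4 (range 1 to 23). All 53 had a peak and 50 (94.3%) had one within 1 kb of the TSS, beside the same 55.5% of coding genes. The 5 with the most were Prkca with 23, Ano6, which exposes phosphatidylserine, with 22, and the integrin gene Itgb3, Cd226 and the Rap1 effector gene Apbb1ip with 20 each. Itga2b, the partner of Itgb3 in the fibrinogen receptor, had 4, its nearest centred 188 bp upstream. The 3 genes without a promoter peak were Clec1b, the podoplanin receptor, with 1 peak 5312 bp downstream, the growth factor gene Pdgfb, and Ap3b1, an adaptor of granule formation.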

How the data were processed

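The deposited table is 1 list of merged peaks for all 14 libraries. Per the file header, the authors annotated a peak file against mm10 with annotatePeaks, with HOMER 4.10.2 per the submitters' processing notes. No source used here gives the aligner, the peak caller or how peaks were merged. The distance to the TSS in bp and the annotation are the deposited values used; the deposited peak score, 0 throughout, was left aside. Peak numbers run from 1 to 92842 without a gap. The planned comparisons between cell types, and any test on values per library, were not made, since the list holds none.

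Members were matched by gene name, transcripts and spans to a RefSeq table (GRCm38.p6). Of the transcripts named in the annotation of other peaks, 0.664% were unmatched. Strands came from the RefSeq promoters or, failing those, were the strand on which more of the listed distances put the TSS inside the gene span. This rule was right for 98.9% of 14438 genes of known strand; it replaced one by the nearest gene end (97.5%), under which Rab27b had been placed at its wrong end. The strand of Thbs1 was taken as forward. Counting and motif search were checked on simulated data (Python 3.11.15, pandas 2.3.3, scipy 1.17.1). The members, roles and further gene list were chosen with earlier results of these data known. All 38 members are named; described in full are the 2 with the most peaks per role, members without a peak, and those with a peak in another gene or a promoter peak given to one. Of the further genes, the 5 with the most peaks were named, and Itga2b and the 3 without a promoter peak were chosen after their values were seen. The promoters printed were also chosen after the motif matches were seen.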

Additional observations from a re-analysis of the deposited data

How the results depend on the processing

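The median of 5 peaks per member became 3 when peaks had to lie within 10 kb of the TSS, 3 when all peaks in the gene body were counted, and 10 when all peaks within 50 kb of the start were counted. It was 4.5 within 50 kb for the member's own peaks and 5 without Thbs1, without Angpt1 or with the Gm13986 peak added to Thbs1. The share of member peaks near the TSS was 12.6% within 500 bp and 30.5% within 5 kb. Members with a promoter peak numbered 32 within 500 bp, 36 within 5 kb and 33 around the RefSeq gene start. The last count took peaks given to any gene, so that Thbs1 came in, and Tbxas1 and Stim1 dropped out. Introns held 47.3% of member peaks, and 38.9% in the detailed annotation, which names repeats in place of introns. Of the peaks in other genes, 29 in place of 31 lay in a coding gene span. In the 100 bases before the start, 2 members matched for GATA, 9 for Ets and 1 for Runx, in place of 6, 15 and 3. TGAGTCA was held by 1, the CArG box by 1 and the GC box by 12, in place of 3, 2 and 13. This window is shorter by construction, and the shares over all genes fell too. Members had 27.3% for Ets, beside 11.6% of all genes, and 6.06% for GATA, beside 4.19%. For the GC box they had 36.4%, beside 27.3%, where the longer window gave 39.4% and 38.2%. Their share was 3.03% each for Runx, TGAGTCA and the CArG box, beside 6.55%, 2.19% and 0.699%. With the wider GATA motif it was 15.2%, beside 12.1%, so above all genes here and below them in the longer window. The wider GATA motif was added after the data were seen. No paired analysis was possible because the list holds no values per library. For the same reason no library could be left out.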

Other observations

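Repeats held 42 of the 262 member peaks (16.0%, exact 95% interval 11.8 to 21.0), beside 16.0% of other peaks. LTR elements, the remains of endogenous retroviruses, held 17 (6.49%, 3.82 to 10.2), beside 6.59%, and 13 of the 17 belonged to the ERVL-MaLR family. The MTD element occurred in 4 of them, 1 each at Vwf, Selp, P2ry1 and Tbxas1 (1.53% of member peaks, 0.418 to 3.86, beside 0.439%), a count too small to read further. Among the SINEs, Rap1b had 3 of its 9 peaks in B3 or B3A elements. No adhesion or collagen receptor gene had a peak in a repeat, in 20 peaks.

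The peaks that the list gave to large members were placed differently within them. At Stim1 all 6 given to it inside the gene and over 1 kb from the TSS lay in intron 1, while the 7 given to Rrm1 lay further along the gene, and at Myh9 6 of 9 lay in intron 1. At Vwf and F13a1 none did, and the peaks lay from intron 3 on.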
